A study of Mus musculus with 12 samples.

Results

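Transcripts of 10 imprinted genes with roles in growth were followed in single cells of the mouse striatum, namely Igf2, Dlk1, H19, Meg3, Plagl1, Peg3, Ndn, Mest, Cdkn1c and Grb10. They were chosen by name, with earlier results of these data known. All 10 were found among the 31053 rows of the UMI count table, where a UMI (unique molecular identifier) marks 1 captured RNA molecule. The cells were enriched with magnetic beads against ACSA2, an astrocyte surface antigen, and profiled by droplet-based 3' RNA sequencing. The design held 2 postnatal libraries (PN1 and PN2) and 2 libraries from animals aged 3 months (3m, named WT1 and WT2), replicates 1 and 2 of each age in the plots, all wild type, of mixed strain per the labels and male C57BL/6Jax per the methods of the study. The methods describe preparations that pooled the tissue of several animals and a dissection that left out the subventricular zone. Whether they describe these same 4 libraries could not be settled from the sources used here. The titles and the age tags conflicted on which postnatal library was taken at day 3 and which at day 7, so both formed 1 group. A library was the replicate, so that n = 2 per age, and p-values measure only the spread between these libraries.

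In an imprinted gene, a single parental copy is active and the other is silenced by marks set in the germ line. Many such genes act on fetal and early postnatal growth, and a number of them are turned down together after birth in several organs. Igf2 is a growth factor and Dlk1 a transmembrane protein related to Notch ligands, both expressed from the paternal copy. H19 and Meg3 are maternally expressed long noncoding RNAs. Plagl1 and Peg3 encode zinc finger proteins, Ndn encodes necdin of the MAGE family, and Mest encodes a membrane protein with a hydrolase fold, all paternally expressed. Cdkn1c encodes an inhibitor of cyclin-dependent kinases, and Grb10 an adaptor that dampens signalling from insulin and IGF receptors. The counts did not separate the parental copies.

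Several of these genes lie close together. In the GRCm38 annotation, H19 at chr7:142575529-142578143 and Igf2 at chr7:142650766-142666816, both on the minus strand, were 72.6 kb apart, with Cdkn1c at chr7:143458339-143461050 on the same strand. Dlk1 at chr12:109452823-109463336 and Meg3 at chr12:109541001-109571726, both on the plus strand, were 77.7 kb apart. The remaining genes were Plagl1 at chr10:13060504-13131694, Ndn at chr7:62346569-62350262 and Mest at chr6:30723547-30748465 on the plus strand, and Peg3 at chr7:6703892-6730431 and Grb10 at chr11:11930508-12038683 on the minus strand. Other counted genes on the opposite strand overlapped Igf2 (Igf2os), Mest (Copg2 and Gm44296), Meg3 (Gm26906), Cdkn1c (Gm44732) and Ndn (Gm32061). Gm49394 overlapped Igf2 on the same strand. The sources used here do not state the strand setting of the counting, so reads of overlapping antisense genes may not be separated. Nor do they state how reads shared by Igf2 and Gm49394 were assigned, so the effect on the Igf2 counts is not known. Copg2, on the opposite strand of Mest, had a log2 fold change of -0.24 ± 0.19 (SE) between the ages in astroglia-gated cells, with an adjusted p of 0.364.

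H19 and Mest each host a microRNA, which is shown because the host transcripts were among the genes that differed most between the ages. The mature sequences are from RefSeq, with the seed (bases 2 to 8) in capitals. No seed was shared among the 4, and the microRNAs themselves were not measured.
miR-675-5p (H19): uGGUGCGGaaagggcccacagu
miR-675-3p (H19): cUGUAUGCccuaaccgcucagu
miR-335-5p (Mest): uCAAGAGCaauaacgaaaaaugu
miR-335-3p (Mest): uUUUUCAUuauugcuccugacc

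Imprinting marks include methylation of CG dinucleotides, so the promoters of 4 genes are shown with every CG in capitals. A promoter window need not be the site of the mark of its gene. Mest, Grb10 and Plagl1 fell in astroglia-gated cells and Peg3 was not called. RefSeq promoter windows of 300 bases (GRCm38.p6, written 5' to 3' on the strand of the gene) matched 8 of the 10 genes with 15 windows. A window held a median of 7 CG over all 32851 windows, with an upper quartile of 20. The windows shown held 17 CG for Mest (chr6:30737800-30738099, plus strand), 45 for Grb10 (chr11:12037371-12037670, minus strand), 26 for Plagl1 (chr10:13090582-13090881, plus strand) and 13 for Peg3 (chr7:6730370-6730669, minus strand). The letters GGGGCCCC, known to be bound by the Plagl1 protein and the same on both strands, stood in 1 of the 15 windows, that of Peg3, and in 354 of all windows (1.08%). Methylation was not measured.
Mest: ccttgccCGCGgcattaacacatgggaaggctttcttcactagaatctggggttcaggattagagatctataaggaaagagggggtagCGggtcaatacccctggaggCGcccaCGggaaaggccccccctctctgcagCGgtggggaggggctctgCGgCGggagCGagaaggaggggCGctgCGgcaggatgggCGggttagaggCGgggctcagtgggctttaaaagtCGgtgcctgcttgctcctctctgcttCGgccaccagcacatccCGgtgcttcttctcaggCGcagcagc
Grb10: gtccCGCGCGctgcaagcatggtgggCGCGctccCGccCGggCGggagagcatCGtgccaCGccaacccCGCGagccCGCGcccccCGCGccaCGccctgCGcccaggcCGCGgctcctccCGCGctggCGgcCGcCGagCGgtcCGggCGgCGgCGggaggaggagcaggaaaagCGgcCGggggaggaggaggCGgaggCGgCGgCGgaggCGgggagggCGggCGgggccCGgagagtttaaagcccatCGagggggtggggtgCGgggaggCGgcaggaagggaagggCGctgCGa
Plagl1: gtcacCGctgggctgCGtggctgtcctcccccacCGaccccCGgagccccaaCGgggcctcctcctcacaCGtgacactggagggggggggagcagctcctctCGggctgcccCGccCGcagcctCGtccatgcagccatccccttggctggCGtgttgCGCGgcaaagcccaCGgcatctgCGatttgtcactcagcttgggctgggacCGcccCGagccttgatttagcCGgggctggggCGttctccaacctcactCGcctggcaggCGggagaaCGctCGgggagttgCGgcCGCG
Peg3: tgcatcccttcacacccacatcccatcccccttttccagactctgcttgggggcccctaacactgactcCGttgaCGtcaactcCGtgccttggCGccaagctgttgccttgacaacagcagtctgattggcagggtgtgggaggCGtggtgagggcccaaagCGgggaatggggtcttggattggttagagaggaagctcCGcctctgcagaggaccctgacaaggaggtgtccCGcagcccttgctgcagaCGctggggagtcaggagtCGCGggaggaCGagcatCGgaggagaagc

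After removal of barcodes with few genes or much mitochondrial RNA, 555 and 723 postnatal cells and 1120 and 719 3m cells remained, with 6991930 to 11275422 UMIs per library. PN2 and WT2 shared 95 barcodes, in which 1 member had a median of 1.76% of the UMIs of the other, and these copies were left out. Cells were gated by marker genes, which gave 377, 519, 316 and 299 astroglia-gated cells in PN1, PN2, WT1 and WT2. In the same order there were 25, 22, 46 and 34 endothelial-gated droplets, 21, 34, 59 and 49 mural-gated cells and 76, 12, 44 and 8 cells gated as oligodendrocyte precursors (OPC). Oligodendrocyte-gated cells numbered 5 and 0 postnatally against 572 and 295 at 3m, although ACSA2 was the label. The endothelial gate calls for caution. Its postnatal droplets had medians of 41855 and 44932.5 UMIs against 6837.5 and 6321.5 at 3m, haemoglobin held 3.42% to 5.58% of their UMIs in all 4 libraries, and the summed level of 10 cycling genes was 707 and 727 CPM (UMIs per 1e+06 UMIs of the sum) postnatally against 4.81 and 10.1 at 3m. Of its droplets, 16, 16, 19 and 15 also held 3 or more mural markers, and only 1 of the 10 genes leading the postnatal gate, Cldn5, was an endothelial marker. The others included 4 haemoglobin genes and the neutrophil genes S100a9, S100a8, Camp and Stfa1, and 1 droplet of PN2 held 6123 of the 6124 UMIs of these 4 neutrophil genes. Endothelial-gated therefore names the markers used and not a pure cell type.

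The first comparison asked how the 10 transcripts differed between the ages in whole libraries. Because the genes were chosen with earlier results known, the shares of all genes called are printed here and below as a description. They do not test the list. At 3m, 8 of the 10 were called lower and 0 were called higher (edgeR adjusted p of at most 0.05 and a change of at least 2-fold, given as log2 fold change of 3m over postnatal), against 13.4% of all 14282 genes called lower. H19 was the lowest at 3m, with 1 UMI in both libraries together against 36 and 121 postnatally, and it passed the filter on low counts only through the latter. Mest was at 54.3 and 119 CPM in PN1 and PN2 and at 3.46 and 2.40 CPM in WT1 and WT2, a log2 fold change of -4.72 ± 0.48 (SE) with an adjusted p of 0.00129. Grb10 changed by -3.43 ± 0.23 and Ndn by -1.91 ± 0.16, whereas Igf2 (-1.45 ± 0.42, adjusted p = 0.0346) was the smallest change called. The Igf2 call was lost in 5 of 13 alternatives, the Plagl1 call without PN2, WT1 or WT2, and the Dlk1 call without WT1 (adjusted p = 0.0525). Peg3 (0.14 ± 0.34) and Cdkn1c (0.61 ± 0.30) were not called, with adjusted p of 0.766 and 0.150. Cdkn1c was called higher without PN1 and with a limit of 5% on mitochondrial UMIs. In sums over mixed cells, fewer cells of a type and less RNA per cell cannot be told apart. Summed levels of 9 oligodendrocyte markers were 61.6 and 16.1 CPM postnatally and 24786 and 26408 CPM at 3m, and the part of this shift in the changes was not tested.

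The classes that held the transcripts were set side by side for the 2 ages. Postnatally, astroglia-gated cells held 95.3% of the 1037 Plagl1 UMIs, 85.4% of the 157 H19 UMIs, 79.6% of the 1108 Ndn UMIs and 77.5% of the 1164 Peg3 UMIs, beside 63.3% of all UMIs. The astroglia-gated part was below 63.3% for Mest (994 of 1726 UMIs), Meg3 (1185 of 2348) and Dlk1 (56 of 120). It was also below 63.3% for Grb10 (356 of 831), Cdkn1c (32 of 491) and Igf2 (1 of 97). At 3m, oligodendrocyte-gated cells held 73.5% of the 287 Plagl1 UMIs, 60.9% of the 253 Ndn UMIs, 54.6% of the 702 Cdkn1c UMIs and 49.5% of the 1046 Peg3 UMIs, beside 57.0% of all UMIs. Of these 4 genes, Plagl1 lay furthest above the share of all UMIs, Ndn lay close to it, and Cdkn1c and Peg3 lay below it. Grb10 was listed at 0 in the 572 and 295 oligodendrocyte-gated cells of the 3m libraries. Of 97 postnatal Igf2 UMIs, 49.5% were in mural-gated and 29.9% in endothelial-gated droplets. Of 31 at 3m, 12 were in mural-gated, 12 in fibroblast-gated and 3 in endothelial-gated droplets.

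**Figure D1:**
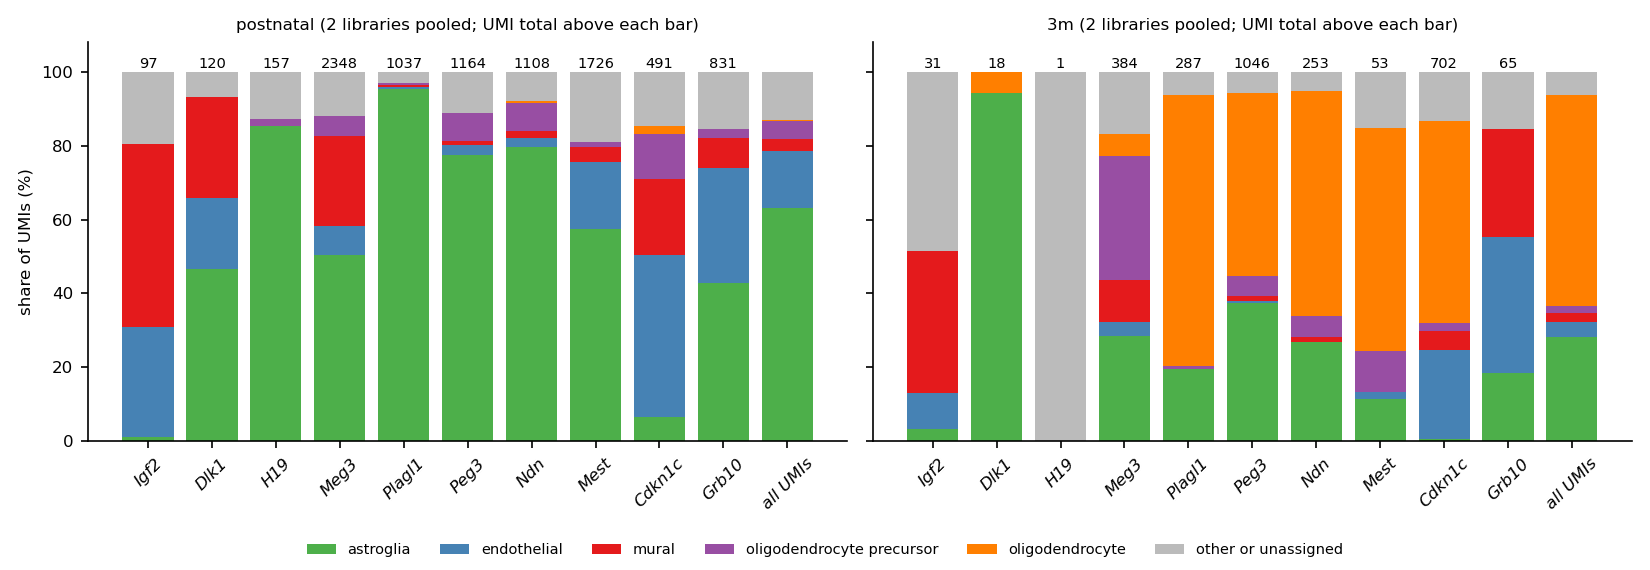
Share of each gene's UMIs (%) held by each marker-gated class, with the 2 libraries of an age pooled the UMI total above each gene's bar and the same shares of all UMIs in the last bar. Oligodendrocyte-gated cells held 57.0% of all 3m UMIs, and 73.5% of Plagl1, 60.9% of Ndn and 49.5% of Peg3 UMIs.

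**Figure D2:**
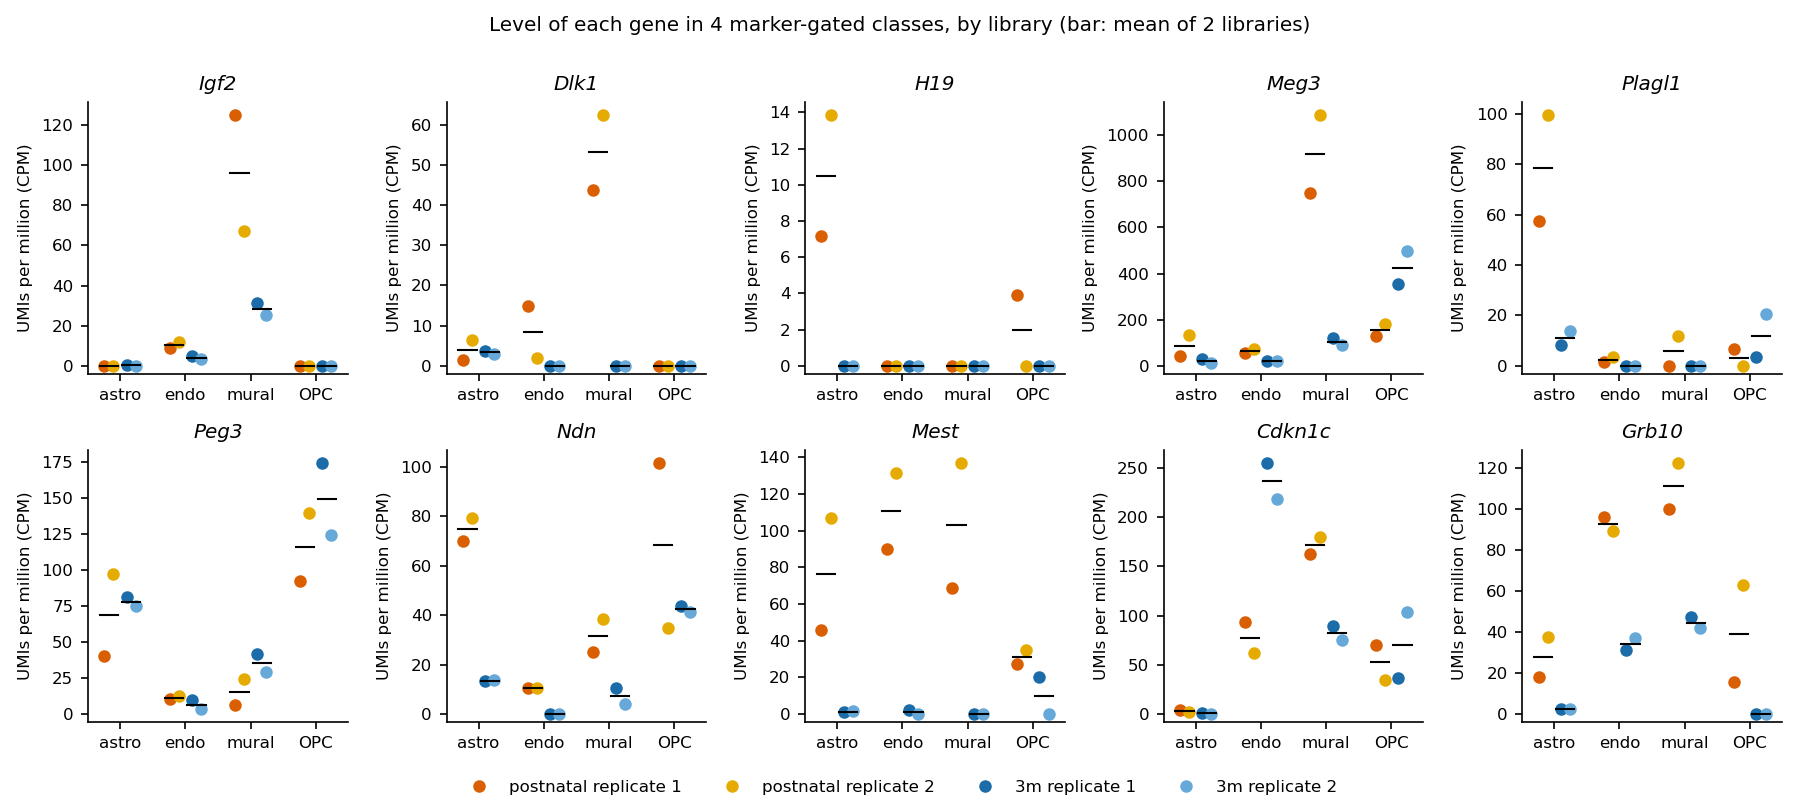
Level of each gene in CPM (linear axis) in astroglia (astro), endothelial (endo), mural and oligodendrocyte precursor (OPC) gates, with a point for each library and a bar for the mean of the 2 libraries of an age. Mest fell to near 0 in 3 of the classes, whereas Cdkn1c was higher at 3m in the endothelial gate (255 and 218 CPM against 93.1 and 62.2) and lower in the mural gate (89.2 and 75.7 CPM against 163 and 180).

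In astroglia-gated cells, the class that the beads were meant to select, 5 of the 10 genes were called lower at 3m (H19, Plagl1, Ndn, Mest and Grb10), 0 were called higher (13.9% of all genes were), 3 were tested and not called (Meg3, Peg3 and Dlk1), and Igf2 and Cdkn1c were too low to be tested. Over all 11715 genes tested in these cells, 10.9% were called lower. H19, Mest and Grb10 passed the filter on low counts only through their postnatal libraries, and without that filter 6 of 10 were called, with Meg3 added. Summed levels of the 10 cycling genes were 369 and 852 CPM postnatally against 30.2 and 224 CPM at 3m, and those of oligodendrocyte markers were 20.7 and 18.8 against 796 and 220 CPM. Without cells that held an oligodendrocyte marker UMI, these 5 and Meg3 were called lower, with larger fitted changes for Mest (-10.44), Grb10 (-4.74), Plagl1 (-4.06) and Meg3 (-2.90) than over all astroglia-gated cells. Before this removal, all 3m astroglia-gated cells held only 6 Mest and 12 Grb10 UMIs. The fitted sizes of these 2 genes therefore rest on few counts and on the prior count. Without cells that held a cycling gene UMI, Plagl1, Ndn, Mest, Grb10 and Meg3 were called lower and H19 could not be tested.

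Mest showed the largest difference with reads at both ages, and passed the low-count filter in astroglia-gated cells only through its postnatal libraries. It was at 45.7 CPM in PN1 and 107 in PN2, and at 0.838 in WT1 and 1.52 in WT2, with no overlap between the ages. The means of 76.2 ± 43.1 and 1.18 ± 0.48 (SD, n = 2 libraries each) differed 64.6-fold, and the log2 fold change was -5.69 ± 0.62 with an adjusted p of 0.00193 and a range of -10.44 to -4.98 over the alternatives. In cells thinned to 2000 UMIs each, 7.35% and 14.7% of postnatal astroglia-gated cells held a Mest UMI, against 0.351% and 0.383% at 3m. Without thinning the shares were 28.1%, 50.7%, 0.633% and 0.669%, at median depths of 9190, 12398, 6035 and 8479 UMIs. The thinned shares of oligodendrocyte-gated cells at 3m were 0.355% and 1.37%, and the unthinned ones 2.80% and 3.05%, so that 3m astroglia-gated cells were not above them.

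H19 was found at low counts and passed the low-count filter only through its postnatal libraries. Its 28 UMIs in PN1 and 106 in PN2 gave 7.15 and 13.9 CPM in astroglia-gated cells, and it was listed at 0 in both 3m libraries. Against the limit set by 3 counts over the 3m group, it was at least 19.4-fold higher postnatally (adjusted p = 0.00634), or 11.95-fold from PN1 alone. It was spread over 14 of 377 cells in PN1 and 53 of 519 in PN2, with at most 7 UMIs in any cell. No H19 UMI was found in endothelial-gated or mural-gated droplets of any library, which allows up to 2.07 CPM in the deepest of these sums, the PN2 endothelial one. The mural sums allow up to 18.8 CPM in PN1 and 7.21 CPM in PN2, so H19 at the astroglia level of PN1 could go unseen there. The H19 neighbour Igf2, by contrast, had 1 UMI in all postnatal and 1 UMI in all 3m astroglia-gated cells.

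The regulators of transcription and growth, Plagl1 and Ndn, were also called lower. Plagl1 was at 57.7 and 99.7 CPM postnatally and 8.38 and 13.7 CPM at 3m, a 7.13-fold difference of the means (log2 fold change -2.55 ± 0.34, adjusted p = 0.00338, with a range of -4.06 to -2.14 over the alternatives). Ndn was at 70.2 and 79.4 CPM against 13.4 and 13.7 CPM, a 5.52-fold difference (-2.19 ± 0.17, adjusted p = 0.00101). The postnatal libraries agreed more closely for Ndn than for Plagl1, yet neither gene overlapped between the ages. After thinning, the share of cells with a Plagl1 UMI was 6.07% and 21.4% postnatally and 1.05% and 1.53% at 3m. The 3m oligodendrocyte-gated cells, at 4.43% and 2.40%, lay above the latter values.

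Peg3 did not follow them. It was at 40.6 CPM in PN1 and 97.2 in PN2, which enclosed the 81.3 and 74.9 CPM of the 3m libraries, and its log2 fold change was 0.45 ± 0.36 (adjusted p = 0.355). Its thinned shares of cells were 6.39%, 17.9%, 12.6% and 11.5% in PN1, PN2, WT1 and WT2. Peg3 alone among the 10 was detected in over 10% of thinned 3m astroglia-gated cells. Leaving out PN2 gave a call in the higher direction for Peg3 and leaving out PN1 a log2 fold change of -0.02, so that the direction depended on which postnatal library was used.

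Grb10 was at 17.9 and 37.4 CPM in the postnatal and 2.52 and 2.28 CPM in the 3m astroglia-gated sums, an 11.5-fold difference (log2 fold change -3.25 ± 0.49, adjusted p = 0.00469, with a range of -6.21 to -2.39 over the alternatives). Grb10 passed the low-count filter only through its postnatal libraries. Of the 6 UMIs in each 3m library, 4 in WT1 and 5 in WT2 came from a single cell. Meg3 was at 42.9 and 133 CPM against 31.9 and 12.5 CPM. The ages did not overlap for Meg3, but the distance between PN1 and WT1 was smaller than that between PN1 and PN2, and the change of -1.72 ± 0.60 was not called (adjusted p = 0.0629). Meg3 was called lower in 6 of 16 alternatives, among them the fits without PN1 (-2.31) and without WT1 (-2.53), with a range of -2.90 to -0.73, the latter without PN2. In WT1, 32 of its 76 UMIs came from 1 cell. Dlk1 was at 1.53, 6.54, 3.77 and 3.04 CPM, with both 3m values between the postnatal ones (adjusted p = 0.945).

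PN2 was higher than PN1 in astroglia-gated cells for 9 of the 10 genes, all but Cdkn1c, with Igf2 resting on 1 UMI. The ratio was over 2-fold for Dlk1, Meg3, Peg3, Mest and Grb10. The libraries also differed in their labelled day and in cycling genes (369 against 852 CPM), and the part of either was not tested.

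**Figure D3:**
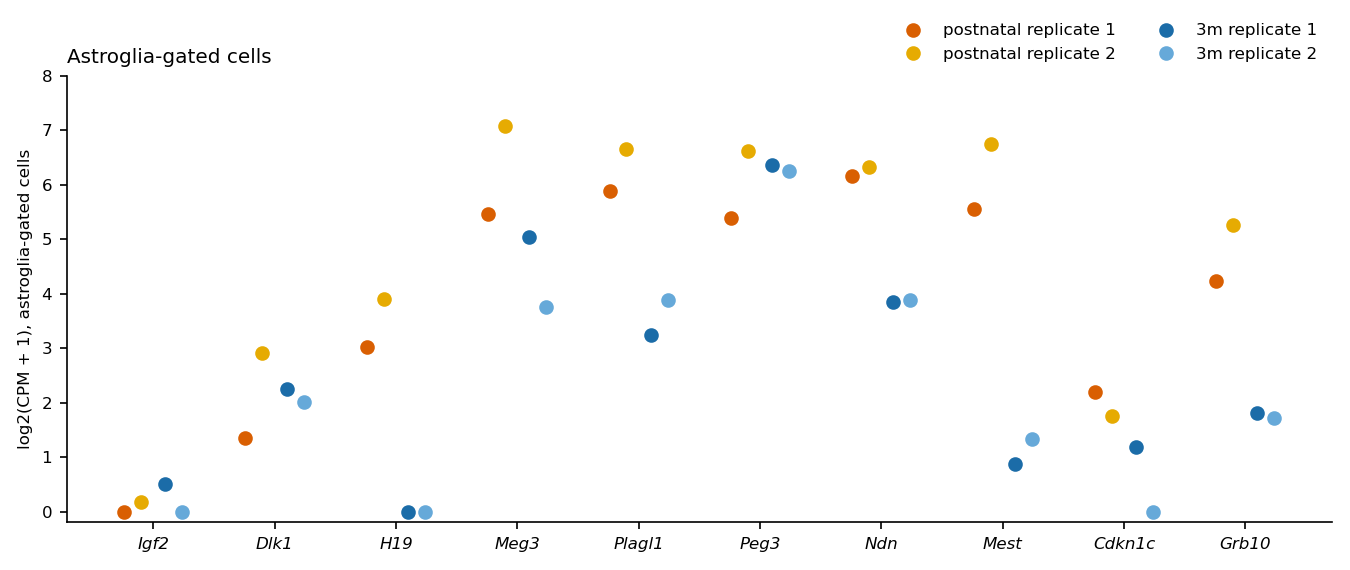
Level of the 10 genes in astroglia-gated cells as log2(CPM + 1), with a point for each of the 4 libraries. Mest, Grb10, Plagl1, Ndn and H19 show both postnatal points well above both 3m points, whereas the postnatal points of Peg3 (40.6 and 97.2 CPM) enclose the 3m points.

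**Figure D4:**
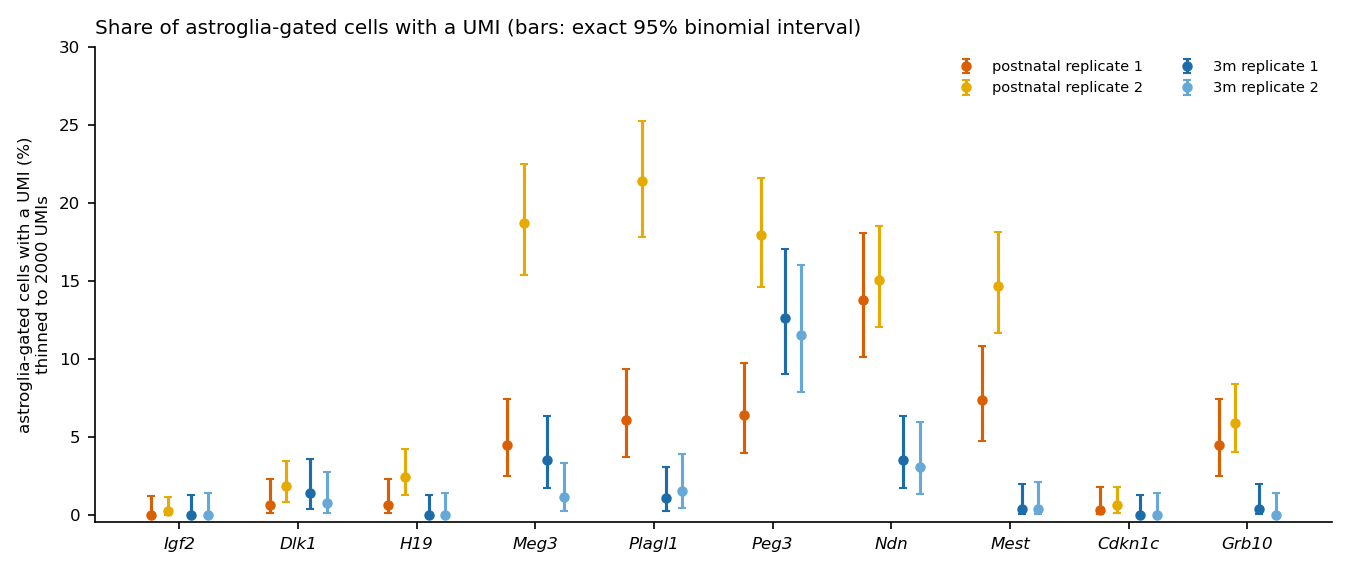
Share of astroglia-gated cells with at least 1 UMI of each gene (%) after each cell was thinned to 2000 UMIs, with exact 95% binomial intervals that cover counting error only. For Ndn the postnatal libraries were at 13.7% and 15.1% and the 3m libraries at 3.51% and 3.07%, with no overlap of the intervals.

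In mural-gated cells, which wrap vessels as pericytes or smooth muscle, 4 of the 10 genes were called lower at 3m (Meg3, Mest, Cdkn1c and Grb10), Igf2 was tested and not called, and 5 did not pass the filter on low counts. Over all 4128 genes tested in this shallow class, 4.99% were called lower. Meg3 was at 751 and 1088 CPM postnatally and at 121 and 88.3 CPM at 3m, an 8.80-fold difference (log2 fold change -3.12 ± 0.30, adjusted p = 0.000316). Mest was at 68.8 and 137 CPM and then listed at 0 in both 3m libraries, at least 16.9-fold lower by the limit of 3 counts over the group (adjusted p = 0.00257), or 9.83-fold from PN1 alone. Mest and Igf2 passed the filter here only through their postnatal libraries. The calls of Meg3 and Mest held in every alternative in which the gene was tested. Grb10 fell from 100 and 123 CPM to 47.2 and 42.0 CPM (-1.32 ± 0.37, adjusted p = 0.0432), a call lost in 5 of 14 alternatives, among them the fits without PN2, without WT1 and without WT2. Cycling genes summed to 601 and 1600 CPM postnatally and to 0 and 8.41 CPM at 3m in these cells. Fibroblast markers summed to 563 and 795 CPM and then to 394 and 416 CPM, and the mural markers themselves to 25460 and 24358 CPM and then to 47478 and 50469 CPM. The part of these shifts was not tested.

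Igf2 was at 125 and 67.3 CPM in the postnatal mural-gated sums, from 20 and 28 UMIs, and at 31.5 and 25.2 CPM at 3m, from 6 UMIs in each library. The ages did not overlap and the means differed 3.39-fold, but the change was not called (log2 fold change -1.60 ± 0.49, adjusted p = 0.0576). It was called lower in 5 of 14 alternatives, namely with the replicate block, without scaling factors, without the low-count filter, without PN2 and with the stricter gate. Dlk1 was at 43.8 and 62.5 CPM postnatally and listed at 0 in both 3m libraries, which put it at least 8.18-fold higher postnatally over the group. Dlk1 did not pass the filter of the planned fit. It was tested in 5 alternatives and called lower in 4 of them, namely without the low-count filter, with DESeq2, without PN1 and without WT1, and not without WT2 (adjusted p = 0.0620). In the mural gate, 9 of the 26 Dlk1 UMIs in PN2 came from 1 cell. In the shares of thinned cells, Igf2 was found in 20.0% and 16.7% of postnatal mural-gated cells and in 0.00% and 0.204% of postnatal astroglia-gated cells.

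Among the 4 classes, both ligands were highest in the mural gate postnatally, whereas Dlk1 at 3m was found in astroglia-gated cells (3.77 and 3.04 CPM) and listed at 0 in the others. Those zeros do not order the classes at 3m. The limits of 3 counts over the 3m group were 7.00 CPM (mural), 4.21 CPM (endothelial) and 8.67 CPM (OPC), all above the astroglia values. In a joint fit of 10560 genes with the library as a block, 8 of the 9 members tested differed between mural-gated and astroglia-gated sums postnatally and 6 at 3m, where 28.9% and 32.8% of all genes were called. H19 did not pass the filter of this fit, and Dlk1 was not called at 3m (-5.65 ± 4.18, adjusted p = 0.315). Postnatally, Igf2 was higher in mural-gated cells by a log2 fold change of 8.85 ± 0.83, Cdkn1c by 5.79 ± 0.33, Dlk1 by 3.53 ± 0.71, Meg3 by 3.34 ± 0.23 and Grb10 by 1.86 ± 0.32. Plagl1 (-3.44), Peg3 (-2.13) and Ndn (-1.24, lost without PN2) were lower there, and Mest (0.36 ± 0.27) was not called. The summed level of astroglia markers was 375 and 589 CPM in postnatal mural-gated cells against 8101 and 5964 CPM in astroglia-gated ones.

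In droplets gated on endothelial markers, Cdkn1c was called in the opposite direction to the other members called. Of the 10 genes, 4 were tested and all 4 were called, with Meg3, Mest and Grb10 lower and Cdkn1c higher at 3m, against 19.1% of all 8246 genes called in either direction. Cdkn1c was at 93.1 and 62.2 CPM postnatally and at 255 and 218 CPM at 3m, 3.05-fold higher in the mean (log2 fold change 1.44 ± 0.22, adjusted p = 0.000146). All 4 libraries of Cdkn1c rested on 65 to 126 UMIs. The change was 1.81 ± 0.19 (adjusted p = 8.61e-05) without droplets over 5% haemoglobin, and 1.35 ± 0.42 (adjusted p = 0.0529, not called) without droplets that held 3 or more mural markers. In the 9, 6, 27 and 19 droplets left by the latter, Cdkn1c was at 117, 37.7, 317 and 189 CPM, from 31, 3, 58 and 27 UMIs. Without the droplet rich in neutrophil genes, Cdkn1c in PN2 was at 56.5 CPM. After thinning, 20.8% and 22.2% of postnatal and 33.3% and 19.4% of 3m endothelial-gated droplets held a Cdkn1c UMI, so the shares did not separate the ages at 2000 UMIs. At 1000 UMIs the shares were 0 of 24 and 0 of 19 postnatally, which allows up to 12.5% and 15.8%, and 13.3% and 12.1% at 3m. Without thinning they were 72.0% and 72.7% postnatally and 65.2% and 52.9% at 3m, in droplets of unequal depth.

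Mest in the endothelial gate was at 90.2 and 131 CPM postnatally and at 2.41 and 0 CPM at 3m (log2 fold change -6.34 ± 0.61, adjusted p = 1.55e-06), and it passed the filter only through its postnatal libraries. With 1 UMI at 3m, the fitted change ranged from -9.86 without WT1 to -3.34 with shared-barcode copies kept, and it was called in all 15 alternatives in which it was tested. In PN2, 68 of its 190 UMIs came from 1 droplet. Grb10 fell from 96.1 and 89.2 CPM to 31.3 and 37.0 CPM (-1.64 ± 0.27), and Meg3 from 57.7 and 71.9 CPM to 21.7 and 20.2 CPM (-1.80 ± 0.34). Each of these 3 was also called without the droplets over 5% haemoglobin, whereas none of the 3 was left to test once droplets with mural markers were removed. All Meg3, Igf2 and Dlk1 UMIs of the gate, in all 4 libraries, lay in droplets with 3 or more mural markers, so that their levels here rest on those droplets. Of the Mest UMIs, 37 of 122 in PN1 and 0 of 190 in PN2 lay in the other droplets. For Grb10, 115 of 130 and 128 of 129 postnatal UMIs lay in droplets with mural markers, and the other droplets, at 56.4 and 12.6 CPM postnatally and 10.9 and 35.0 CPM at 3m, overlapped between the ages. Igf2 had 8.87 and 11.8 CPM in the postnatal endothelial gate and was called higher than in astroglia-gated cells (6.10 ± 0.91), but without droplets holding mural markers this became -1.10 and was not called.

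Cdkn1c changed in opposite directions in the 2 vascular gates. In mural-gated cells it went from 163 and 180 CPM to 89.2 and 75.7 CPM, a log2 fold change of -1.04 ± 0.30 (adjusted p = 0.0477) that was lost in 9 of 14 alternatives. The difference between the changes, endothelial minus mural, was 2.52 ± 0.41 (adjusted p = 0.000391) and was called in 14 of 14 alternatives, where 1.68% of all genes were called. At 3m, Cdkn1c was higher in the endothelial than in the mural gate (1.63 ± 0.32, adjusted p = 0.000227). Postnatally it missed only the 2-fold limit and was not called (-0.89 ± 0.26, adjusted p = 0.0119), but was called lower in 4 of 14 alternatives. Between these gates, 4 of the 9 members tested were called postnatally (Igf2, Dlk1, Meg3 and Ndn, all lower in the endothelial gate), against 18.3% of all genes. At 3m, 3 were called (Meg3 and Peg3 lower, Cdkn1c higher), against 16.5% of all genes. The 3m calls of Meg3 and Peg3 were lost without the library block and without WT1, and that of Peg3 also without WT2. The postnatal call of Ndn was lost in several alternatives, among them the fits without PN1 and without PN2, that of Dlk1 without PN2 and that of Igf2 without PN1. Astroglia-gated cells were lowest for Cdkn1c among the 4 classes at both ages, with 3.57 and 2.36 CPM postnatally and 1.26 and 0 CPM at 3m.

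Against astroglia-gated cells, the endothelial gate differed in 6 of the 9 members tested postnatally and in 5 at 3m, beside 39.8% and 41.1% of all genes. Cdkn1c was higher there by 4.90 ± 0.30 postnatally and 8.10 ± 0.43 at 3m, and Grb10 by 2.00 ± 0.25 and 3.42 ± 0.58. Plagl1, Peg3 and Ndn were lower at both ages. Without droplets that held mural markers, the postnatal calls of Igf2, Grb10 and Ndn were lost and those of Cdkn1c, Plagl1 and Peg3 held. Meg3, at 0 UMIs in the droplets left, was then called lower than in astroglia-gated cells at both ages (adjusted p = 0.000153 and 0.00415). The change of the Cdkn1c difference with age was 3.20 ± 0.74 (12.1% of all genes called), with a range of 2.31 to 6.59 over the alternatives and only 3 Cdkn1c UMIs in all 3m astroglia-gated cells. Mest (0.82 ± 0.20) did not reach the 2-fold limit, so that the 3 gates with most postnatal Mest, endothelial at 90.2 and 131 CPM, mural at 68.8 and 137 and astroglia at 45.7 and 107, could not be ordered by the calls. The postnatal endothelial gate had 187 and 194 CPM of summed astroglia markers.

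**Figure D5:**
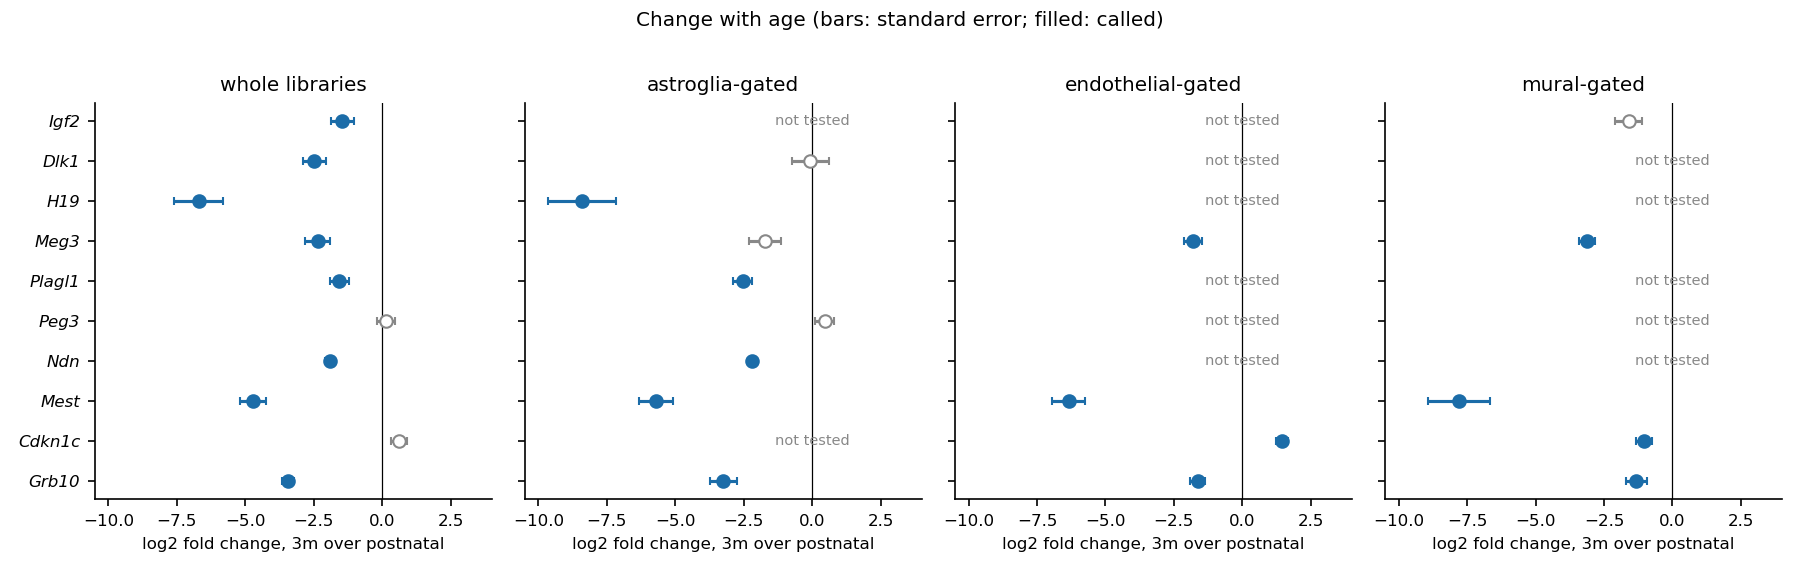
Log2 fold change of 3m over postnatal with its standard error in whole libraries and in 3 gates, with filled points for called genes. Most called points lie left of 0, with Cdkn1c in the endothelial gate (1.44) as the exception.

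In oligodendrocyte precursors, Meg3 was the gene called between the ages. Because WT2 held 8 of these cells, no age test was planned, and a version that accepted at least 5 cells per library was added after the data had been seen. In it, 1 of the 3 genes tested was called, Meg3, which was higher at 3m (log2 fold change 1.26 ± 0.33, adjusted p = 0.0181), beside 17.0% of all 4706 genes. Meg3 was at 130 and 182 CPM postnatally and at 352 and 497 CPM at 3m, from 105 and 24 UMIs at 3m. This call was lost without PN1, without WT2, without the low-count filter and with DESeq2. Cycling genes in this gate summed to 1377 and 2342 CPM postnatally and to 13.4 and 20.7 CPM at 3m, and their part was not tested. Over all genes, 22 were called without WT2 in place of 801. Mest was at 27.4, 35.0, 20.1 and 0 CPM in PN1, PN2, WT1 and WT2, and Grb10 at 15.6, 62.9, 0 and 0 CPM. Peg3, at 92.5, 140, 175 and 124 CPM, and Ndn, at 102, 35.0, 43.6 and 41.4 CPM, overlapped between the ages.

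Compared with astroglia-gated cells in the planned fit, 3 of the 9 members tested were called in postnatal precursors, against 19.9% of all genes. Cdkn1c was higher (4.10 ± 0.39), and Plagl1 (-3.75 ± 0.53) and Mest (-1.25 ± 0.33) were lower. The Mest call was lost without PN2 and without droplets that held mural markers. Igf2 and Dlk1 were listed at 0 in the precursors of all 4 libraries, which allows up to 3.91 CPM in the deepest, PN1. In PN2, WT1 and WT2 it allows up to 21.0, 10.1 and 62.2 CPM. Among the 4 classes, Meg3 in CPM was highest in the mural gate postnatally and in the precursors at 3m. Tests of the difference in age change called Meg3 between mural and astroglia gates (-1.51 ± 0.41, 5.69% of all genes called) and, with at least 5 cells, Meg3 and Mest between precursors and astroglia (7.36% called) and between mural cells and precursors (2.88% called).

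For context, lists of related genes were described in the same fits. Of 35 other imprinted genes, 25 were tested in astroglia-gated cells, with 6 called higher, 4 called lower and a median log2 fold change of -0.11, against -0.01 over all genes. These shares stand beside 13.9% of all genes called higher and 10.9% called lower. Those called higher were Zim1 (4.81), Ddc (2.74), Nap1l5 (1.95), Sfmbt2 (1.78), Impact (1.05) and Sgce (1.05). Those called lower were Peg12 (-3.45), Zdbf2 (-3.13), Peg10 (-2.77) and Gnas (-1.12). Of these, Peg12, Zdbf2 and Peg10 passed the filter of 3.05 CPM only through the postnatal libraries, and Zim1 and Sfmbt2 only through the 3m libraries, so that the counts of calls are given as a description. Zim1, a neighbour of Peg3 in the same imprinted cluster, was at 0.255 and 0.393 CPM postnatally and 10.5 and 6.84 CPM at 3m. Gnas, which encodes the alpha subunit of the stimulatory G protein, was at 1297 and 1523 CPM against 520 and 549 CPM.

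Of 16 genes of the IGF pathway, 13 were tested in astroglia-gated cells, with 1 called higher and 5 lower and a median of -0.81, beside the same shares of all genes. The IGF binding protein genes Igfbp3, Igfbp4 (-3.27) and Igfbp2 (-1.32), the RNA binding protein gene Igf2bp2 (-3.66) and the receptor substrate gene Irs2 (-1.92) fell, and the insulin receptor gene Insr (1.02) rose. Igfbp3 was at 3.32 and 18.5 CPM postnatally and listed at 0 in both 3m libraries, at least 22.3-fold lower by the limit of 3 counts over the group, or 5.55-fold from PN1 alone, since 141 of its 154 UMIs were in PN2. Igfbp3 and Igf2bp2 passed the filter only through the postnatal libraries. Igfbp2 went from 379 and 515 CPM to 123 and 171 CPM. Among 6 other inhibitors of cyclin-dependent kinases, 5 were tested and Cdkn2c (-1.26) was called lower. In whole libraries, 8 other imprinted genes were called higher and 4 lower of 28 tested, and 2 IGF pathway genes were called higher (Grb14 and Igf1) and 7 lower of 15, where 15.8% of all genes were called higher and 13.4% lower. In whole libraries, 2 of these 8 and 1 of these 2 passed the filter only through 3m libraries, and 2 of these 4 and 2 of these 7 only through postnatal ones.

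The genes most like each member in pattern were found by Pearson correlation of log2(CPM + 1) over the 15 sums of class and library, which share libraries and differ in depth. For Igf2 they were Fblim1 (r = 0.986), Tbx18 (0.982) and Tlr12 (0.981), of which Tbx18 encodes a transcription factor of mural cells. For Peg3 the closest was Sox6 (0.974), for Cdkn1c Tmem234 (0.970), for Ndn Zfp428 (0.959) and for Grb10 Chek2 (0.958), with Nes, which encodes the intermediate filament nestin, at 0.928. The closest to Meg3 was Plxna1 (0.927), to Plagl1 Ptx3 (0.927), to Mest Dnajc2 (0.897) and to Dlk1 Glipr2 (0.886). These values describe 15 points and carry no test.

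Within postnatal astroglia-gated cells thinned to 2000 UMIs, cycling genes were set beside the members as a description. In PN2, 14 of 72 cells with a Mest UMI (19.4%) held a cycling gene UMI, against 53 of 419 without (12.6%). For Grb10 the same shares were 8 of 29 (27.6%) and 59 of 462 (12.8%), and for Meg3 they were 5 of 92 (5.43%) and 62 of 399 (15.5%). In PN1 they were 3 of 23 and 27 of 290 for Mest, and 2 of 14 (14.3%) and 28 of 299 (9.36%) for Grb10 and for Meg3 alike. For Plagl1 the share was lower in cells with a UMI in both libraries, at 1 of 19 against 29 of 294 in PN1 and 10 of 105 against 57 of 386 in PN2. For Peg3 the shares were 8 of 88 and 59 of 403 in PN2, and 2 of 20 and 28 of 293 in PN1. The order for Meg3 was thus opposite in the 2 libraries, on few cells in PN1.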

How the data were processed

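The authors deposited raw UMI counts, a table of genes by cell barcodes in which the runs of each library were merged. The submitters' processing notes name Cell Ranger, Seurat 3.1.1 and mm10, and the study's methods describe cellranger count. All 12 samples were runs of 4 libraries. The 10 genes and the lists were chosen with earlier results of these data known.

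Cells with over 10% mitochondrial UMIs or under 500 genes were removed, as were barcode copies with at most 5% of the UMIs of their partner. A cell was gated by the mean ln(1 + counts per 10000) over fixed markers, with at least 3 markers detected and a lead of 0.25. No doublet caller was run. Counts were summed per library and class (at least 10 cells) and tested with edgeR 4.0.16 (glmQLFit, TMM, filterByExpr, R 4.3.3), with Benjamini-Hochberg adjustment over all genes tested. A gene was called at an adjusted p up to 0.05 when it also differed by 1 or more on the log2 scale in either direction. DESeq2 1.42.0 was an alternative. CPM is UMIs per 1e+06 of the sum. Intervals are exact at 95% and, like limits of 3 counts, cover counting error only. All members were named. Of other lists, at most 6 called genes per direction were named, and the 3 most correlated genes per member were computed. The tests were checked on simulated counts. Alternatives changed scaling, filters, gates, cells, the replicate block and single libraries. Self-made sums over classes used Python 3.11.15 with SciPy 1.17.1. Promoters and microRNAs were taken from RefSeq (GRCm38.p6), gene positions from a GRCm38 annotation.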

Additional observations from a re-analysis of the deposited data

Results flagged for a closer look

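The changes with age of 3 genes differed between classes by a test of the difference itself in the joint edgeR fit (log2 scale, 3m minus postnatal, n = 2 libraries per age). For Cdkn1c, the endothelial-over-astroglia difference grew by 3.20 ± 0.74 (adjusted p = 0.00295, lost without WT2, from 2.31 to 6.59 over the alternatives, with 3 UMIs in the 3m astroglia-gated sums) and the endothelial-over-mural difference by 2.52 ± 0.41 (adjusted p = 0.000391, called in 14 of 14 alternatives). Among all genes, 12.1% and 1.68% were called in these contrasts. The 2 contrasts share the endothelial sums, whose postnatal droplets were deeper than the 3m ones. Haemoglobin held 5.36% and 5.58% of their UMIs postnatally and 4.61% and 3.42% at 3m. For Meg3, the mural-over-astroglia difference changed by -1.51 ± 0.41 (adjusted p = 0.0208, beside 5.69% of all genes), a call lost without scaling factors, without the library block and without WT1.

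The remaining differences rest on the version that accepted 5 cells per sum, so that WT2 entered with 8 oligodendrocyte precursors. There the precursor-over-astroglia difference grew by 2.52 ± 0.43 for Meg3 (adjusted p = 0.000208) and by 4.20 ± 1.06 for Mest (adjusted p = 0.0109), with 7.36% of all genes called. The mural-over-precursor difference changed by -4.05 for Meg3 (adjusted p = 4.23e-06) and by -8.70 for Mest (adjusted p = 0.0436), with 2.88% of all genes called. Mest was listed at 0 in both 3m mural sums, so its fitted size depends on the prior count.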

How the results depend on the processing

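Of the counts of members called, 78 values under the alternatives stayed within 1.5 times the reported count and 9 moved. In whole libraries the count was 8, with 5 to 8 when single libraries were left out and 5 without WT1. Without PN1, and with at most 5% mitochondrial UMIs, the 8 were 7 lower and 1 higher (Cdkn1c). In astroglia-gated cells it stayed at 5 or 6 of 10. In mural-gated cells it was 4, with 2 to 5 on leaving out libraries (2 without PN2 or without WT2), 2 with at least 1000 genes per cell and 6, all lower, without the low-count filter. In endothelial-gated droplets it was 4, with 6 without the low-count filter (Dlk1 and Ndn added), 5 without WT2 (Ndn added) and 0 without droplets that held 3 or more mural markers, where only Cdkn1c could be tested. In precursors (at least 5 cells) it was 1, with 0 under DESeq2 and 0 to 2 without single libraries. Without the low-count filter the 1 call was Grb10, lower, and without PN2 the 2 calls were Meg3, higher, and Ndn, lower. The contrasts with astroglia-gated cells in the joint fit gave 30 calls and 28 to 34 under the alternatives. Endothelial over mural, added after the data had been seen, gave 4 calls postnatally (2 to 5, with 2 without PN2 and without the library block) and 3 at 3m (1 to 4, with 1 without WT1 and without the library block).

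The labels do not say that a replicate number marks a shared litter or day, and deviations of same-numbered libraries correlated at 0.168 in whole libraries, 0.110 in astroglia-gated, 0.0178 in endothelial-gated and 0.0829 in mural-gated sums. With the replicate block the counts of members called were 8, 5, 4 and 5 in that order, and 1 in precursors.

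Among the age changes within a class and the calls of the joint fit, 12 values changed sign, none of them called after the change. Contrasts not called in the joint fit also changed sign, and Mest in endothelial over astroglia at 3m (-0.09) became 3.07 and was called with shared-barcode copies kept. Igf2, endothelial over astroglia postnatally, became -1.10 and Ndn, endothelial over mural postnatally, 0.050 without droplets holding mural markers. Dlk1 in astroglia-gated cells became 0.10 with the replicate block and ranged from -0.65 to 0.12 on leaving out single libraries (0.12 without WT2). Peg3 in whole libraries became -0.012 without scaling factors. On leaving out single libraries, Peg3 ranged from -0.32 to 0.79 in whole libraries, from -0.020 to 1.17 in astroglia-gated cells and from -0.076 to 0.60 in precursors, with each lowest value without PN1, and it was -0.06 in precursors without WT1. Ndn, mural over precursor postnatally, ranged from -2.02 to 0.20 (the latter without PN1). Cdkn1c in precursors ranged from -0.94 to 0.54, with 0.30 without PN1 and 0.54 without WT1. Over all genes, the adjusted p alone called 6530 against 4179 in whole libraries and 4436 against 2897 in astroglia-gated cells, where 1892 and 1861 were called without 1 or the other 3m library. In endothelial-gated droplets 1577 became 968 with DESeq2 and 483 without mural markers. In mural-gated cells 469 became 808 without the filter, 192 with DESeq2 and 739 without PN1, and in precursors 801 became 305 with DESeq2, 384 without WT1 and 22 without WT2. Omitting scaling factors shifted the median of all genes by -0.28 in astroglia-gated, 0.18 in endothelial-gated and -0.15 in whole-library sums. The causes were not tested. Genes with few UMIs per class, among them Igf2, Dlk1 and H19 outside their main class, were limited by depth.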

Other observations

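Igf2 was also found in cells of other gates. The 7 and 9 fibroblast-gated cells of WT1 and WT2 held 3 and 9 Igf2 UMIs, 128 and 199 CPM, which is 38.7% of the 31 Igf2 UMIs of the 3m libraries. In the 14 and 9 ependymal-gated cells of WT1 and WT2, Meg3 was at 96.9 and 86.3 CPM. In 7 neuron-gated cells of PN2, Meg3 had 125 UMIs (1731 CPM), 51 of them in 1 cell. Cdkn1c, at 33.2 and 44.2 CPM in 3m oligodendrocyte-gated cells, was held by 88 of 572 and 60 of 295 cells, with up to 16 UMIs in a cell.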
